A study of Mus musculus with 2 samples.

Results

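The genes described here are 10 genes of prostaglandin synthesis, degradation and reception, *Ptgs1*, *Ptgs2*, *Ptges*, *Ptgis*, *Ptgds*, *Hpgd*, *Ptger2*, *Ptger3*, *Ptger4* and *Ptgfr*. They were chosen by name, and all 10 are among the 31053 genes counted in both libraries. The data are 2 scRNA-seq libraries of lamina propria cells, the connective tissue under the intestinal epithelium, from C57BL/6 mice. Their age is 11 weeks by the labels, although 10 weeks is also given in the sources used here. One library came from *ApcMin/+;Lef1 +/+* mice (ApcMin) and the other from *ApcMin/+;Lef1 fl/fl;Villin-Cre* mice (VApcMinL), so the *ApcMin* allele, which gives intestinal adenomas, is shared by both groups. Villin-Cre acts in the intestinal epithelium, so the deletion of *Lef1*, which encodes a transcription factor of the Wnt pathway, is aimed at that tissue and not at the cells sorted for these libraries. Cells that carried Ter119, Epcam or CD45, the surface proteins of red blood cells, epithelial cells and leukocytes, or that took up DAPI, were to be sorted away. *Lef1* itself had 1 UMI in ApcMin fibroblasts and 9 in VApcMinL fibroblasts, and 0 and 3 in epithelial-like cells, too few to check the deletion here. The number of mice in each library is not given in the sources used here.

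Each group was a single library, so no test between genotypes could be made and no p-value is given. Every interval below is a 95% interval for counting error only and holds no variation between mice, dissociations or libraries. Those of levels and ratios also leave out variation between cells, so they are too narrow where 1 cell holds many UMIs. Levels are UMIs (single RNA molecules) of a gene per 1000000 UMIs (CPM), summed over the cells of a cluster in 1 library. A log2 ratio is the level in VApcMinL over that in ApcMin, and the effect of genotype and differences in how the 2 libraries were made cannot be told apart.

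Prostaglandins are short-lived lipid signals made from arachidonic acid, which phospholipase A2 frees from membranes. The cyclooxygenases PTGS1, present in many resting cells, and PTGS2, induced by cytokines, growth factors and cell stress, turn it into PGH2, from which terminal synthases make PGE2, prostacyclin, PGD2 or thromboxane. PGE2 acts through 4 receptors, is taken up by transporters and is inactivated by 15-hydroxyprostaglandin dehydrogenase, encoded by *Hpgd*. In the intestine, PGE2 from stromal cells is known to act on epithelial stem cells and repair, and inhibitors of the cyclooxygenases reduce the number of adenomas in *ApcMin* mice.

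The rule of at least 3000 UMIs and at most 20% mitochondrial UMIs kept 6599 barcodes in ApcMin and 6569 in VApcMinL, and 6251 and 6224 cells remained after likely doublets were left out. Their median UMIs were 10709 and 8932. Only 18 barcode sequences were shared by the libraries under the rule. The cells fell into 18 clusters, 6 of which were fibroblast clusters, with 3160 cells (50.6%) in ApcMin and 3474 (55.8%) in VApcMinL and median UMIs of 13303 and 10566. The cluster led by *Pi16*, *Has1* and *Mfap5* had 1125 and 746 cells. That led by *Penk*, *Lpl* and *Plau* had 874 and 702, and that led by *Adamdec1*, *Ereg* and *Col6a5* had 462 and 1108. Those led by *Grem1*, *Stc2* and *Cxcl13* (the Grem1 Ackr4 cluster) had 537 and 688 cells, those led by *Scg2*, *Thbs2* and *Fibin* had 138 and 112, and those led by *Wif1*, *Itgbl1* and *Masp1* had 24 and 118. The last had 5 of 10 fixed markers of subepithelial *Pdgfra*-high cells. Cells that the sort should have removed were present too, among them 1362 and 361 erythroid-like, 647 and 347 B cell-like, 253 and 213 myeloid-like and 26 and 280 epithelial-like cells.

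On GRCm38, *Ptgs2* (ENSMUSG00000032487) lies on chromosome 1 at 150100031 to 150108227 on the plus strand. *Ptgs1* (ENSMUSG00000047250) lies on chromosome 2 at 36230426 to 36252272 on the plus strand. *Hpgd* (ENSMUSG00000031613) lies on chromosome 8 at 56294585 to 56321043 on the plus strand. These 3 genes carry the main contrasts below, since *Ptgs1* and *Ptgs2* encode enzymes with the same product but ranked the clusters differently, and *Hpgd* encodes an enzyme that breaks such products down. The 250 bases before their RefSeq starts (GRCm38.p6, plus strand, chr2:36230176-36230425, chr1:150099781-150100030 and chr8:56294302-56294551) are shown for that reason, with capitals for the GC box GGGCGG on either strand and the palindrome TTGCGCAA, a binding sequence of C/EBP factors.

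Ptgs1: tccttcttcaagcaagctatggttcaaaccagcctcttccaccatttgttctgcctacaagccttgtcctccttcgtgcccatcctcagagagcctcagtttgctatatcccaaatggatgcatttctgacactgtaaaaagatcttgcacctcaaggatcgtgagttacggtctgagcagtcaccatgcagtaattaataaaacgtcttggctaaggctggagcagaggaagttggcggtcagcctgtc
Ptgs2: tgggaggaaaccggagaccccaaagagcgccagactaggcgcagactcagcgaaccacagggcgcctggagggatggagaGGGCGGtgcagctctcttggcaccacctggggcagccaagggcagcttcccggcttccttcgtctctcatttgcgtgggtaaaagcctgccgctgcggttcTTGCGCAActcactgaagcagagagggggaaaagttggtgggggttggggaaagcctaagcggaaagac
Hpgd: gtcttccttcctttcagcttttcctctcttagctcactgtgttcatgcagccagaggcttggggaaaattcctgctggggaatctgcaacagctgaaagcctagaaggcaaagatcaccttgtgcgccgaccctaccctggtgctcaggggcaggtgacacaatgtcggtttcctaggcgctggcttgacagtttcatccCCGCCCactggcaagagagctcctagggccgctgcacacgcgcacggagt

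The bases before *Ptgs1* were 48.0% G or C, against 61.6% before *Ptgs2* and 56.8% before *Hpgd*. The palindrome starts 69 bases before the *Ptgs2* start, and it was present in 0.183% of 32851 RefSeq promoters of 300 bases (250 before and 50 after the start, both strands searched). The GC box was in 35.7% of those promoters and in 6 of the 9 member promoters at hand, *Ptgs2*, *Ptges*, *Hpgd*, *Ptger3*, *Ptger4* and *Ptgfr*. The E box CACGTG, at 7.15% of promoters, was found in *Ptgs2* alone among the members, and it overlaps a reverse TGACG, at 20.8%. Both lie after the *Ptgs2* start, from bases 17 and 14, and so outside the bases printed. The TATA letters TATAAA (13.6%) were found only in *Hpgd*, from base 5 after the start and not upstream of it. CCAAT (37.4%) was found only in *Ptger2* and *Ptger4*, TGANTCA (7.81%) only in *Ptgds*, and the NF-kappaB motif searched (0.411%) in none of the 9. These matches describe letters in a window and are not sites shown to be used.

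**Figure D1:**
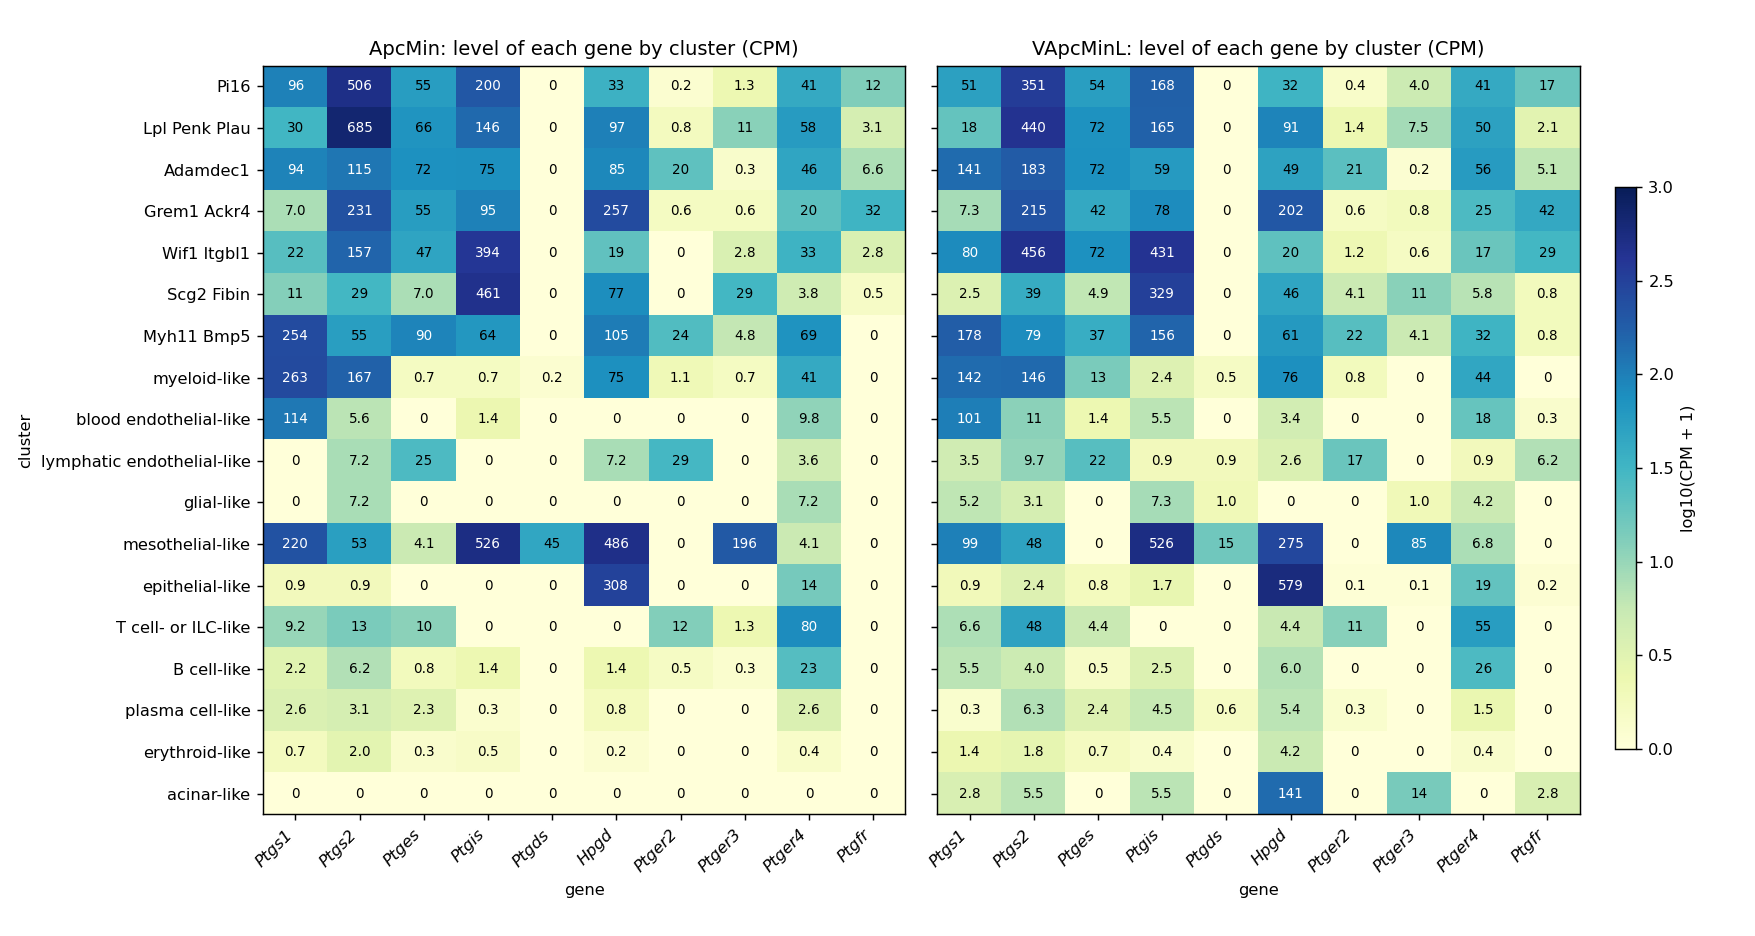
Level of each of the 10 genes (columns) in each cluster (rows) in the ApcMin library (left) and the VApcMinL library (right), printed in CPM and colored by log10(CPM + 1). *Ptgs2* is highest in the Lpl Penk Plau cluster in ApcMin (685 CPM), *Ptgis* in the mesothelial-like cluster (526 in both) and *Hpgd* in the epithelial-like cluster in VApcMinL (579).

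*Ptgs2*, the inducible cyclooxygenase, had most of its UMIs in fibroblast clusters in both libraries, where fibroblasts were 50.6% and 55.8% of cells. The fibroblast clusters held 95.5% of its UMIs in ApcMin cells and 93.3% in VApcMinL cells. Its level in the Lpl Penk Plau cluster was 685 CPM (669 to 700.5) in ApcMin and 439.8 (424 to 456) in VApcMinL. In the Pi16 cluster it was 506 (496 to 517) and 351 (339.7 to 363). The other 4 fibroblast clusters lay lower in ApcMin, at 231 in Grem1 Ackr4, 157 in Wif1 Itgbl1, 115 in Adamdec1 and 29.0 in Scg2 Fibin. The Adamdec1 level in ApcMin did not exceed that of the library's empty droplets, which was 132 CPM against 93.4 in VApcMinL. After thinning each cell to 3000 UMIs, 32.6% and 23.2% of Lpl Penk Plau cells and 39.2% and 33.6% of Pi16 cells had a *Ptgs2* UMI (unthinned 43.5% and 31.9%, and 56.5% and 48.9%). B cell-like cells, which should lack it and had median UMIs of 4849 and 4579, gave a background of 1.55% and 0.576% (unthinned 3.55% and 1.73%).

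The libraries differed in *Ptgs2* in opposite directions by cluster. It was lower in VApcMinL in the Lpl Penk Plau cluster (log2 ratio -0.64, -0.70 to -0.58) and in the Pi16 cluster (-0.53, -0.58 to -0.47). It was higher in the Adamdec1 cluster, at 183 CPM (174 to 191) against 115 (106 to 124), a log2 ratio of 0.67 (0.54 to 0.80). In the Wif1 Itgbl1 cluster it was 456 (423 to 489.8) against 157 (119 to 203), with only 24 ApcMin cells. Of the 57 ApcMin UMIs there, 26 came from 1 cell, and without it the level was 90 (61.1 to 128), below that of the empty droplets. The Grem1 Ackr4 cluster was close to level, at -0.10 (-0.20 to -0.01). Over the 6 fibroblast clusters together *Ptgs2* was 426 CPM (419.6 to 432) in ApcMin and 286 (280.3 to 291) in VApcMinL, a log2 ratio of -0.58 (-0.61 to -0.54), which is short of 2-fold.

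Within these clusters *Ptgs2* was concentrated in smaller groups of cells, seen when the same cells were split further (resolution 1). A group led by *Ccl7*, *Il6* and *Cxcl1* made up 16.5% of the Lpl Penk Plau cluster in ApcMin and 19.2% in VApcMinL. Its *Ptgs2* level was 2237 CPM (2169 to 2306) and 1424 (1362 to 1489). The larger rest of that cluster was at 359 and 187. In the Adamdec1 cluster, a group led by *Ereg*, an EGF receptor ligand, was at 689.8 (621 to 764) and 773 (732 to 815). The main Adamdec1 group, led by *Cxcl13*, was at 45.7 and 48.8. In Grem1 Ackr4, a group that also had *Cpxm1* among its leading genes was at 631 and 489.5, against 106 and 89.7 in the group led by *Grem1*, *Ackr4* and *Stc2*. In these 3 clusters *Ptgs2* was highest in a minority of the cells, and in each the same group led in both libraries.

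The higher *Ptgs2* of the Adamdec1 cluster in VApcMinL went with a larger share of *Ereg* cells, 9.09% of the cluster in ApcMin (42 cells) and 17.4% in VApcMinL (193 cells). Inside that group the levels of the libraries differed by a log2 ratio of 0.16. Of the 659 ApcMin *Ptgs2* UMIs of the Adamdec1 cluster, 138 came from a single cell, and without it the cluster level was 90.8 CPM. The levels of its finer groups were not recomputed without that cell. The part that the share of *Ereg* cells plays in the cluster difference was therefore not tested. In contrast to the *Ereg* group, all 4 finer groups of the Pi16 and Lpl Penk Plau clusters were lower in VApcMinL. In the Pi16 cluster, the group led by *Has1*, *Ptx3* and *Inmt* was at 669 and 459 and the group led by *Pi16*, *Mfap5* and *Cd248* at 319 and 183. *Il6*, a cytokine gene, is among the leading genes of the *Ccl7* group. Its level there, 1701 and 1465, is therefore no separate observation. In the *Ereg* group *Il6* was 216 and 258, above the *Cxcl13* group beside it (8.99 and 21.0). The *Ereg* level was below that of the *Has1* group of the Pi16 cluster (499 and 566). The *Cpxm1* group of Grem1 Ackr4 had 506 and 513, against 55.7 and 94.8 in the group led by *Grem1*, *Ackr4* and *Stc2*. This sharing of groups by *Ptgs2* and *Il6* is a description and not a test.

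Dissociation at warm temperature can induce early response genes, and *Ptgs2* is one of the genes known to respond. A list of immediate early and heat shock genes summed to between 13059 and 32939.6 CPM in the fibroblast clusters, lowest in Adamdec1 in ApcMin. The glial-like cells had the highest sums of that list, 63398 and 51374 CPM, with *Ptgs2* at only 7.17 and 3.11. A list of inducible cytokine genes summed to 3526 and 3824 CPM in the Pi16 cluster, 3331 and 3362 in Lpl Penk Plau, 1154 and 1383 in Grem1 Ackr4 and 469.5 and 946 in Adamdec1. So the cytokine list was not lower in VApcMinL in the 2 clusters where *Ptgs2* was. The part that either list plays in the *Ptgs2* levels was not tested.

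**Figure D2:**
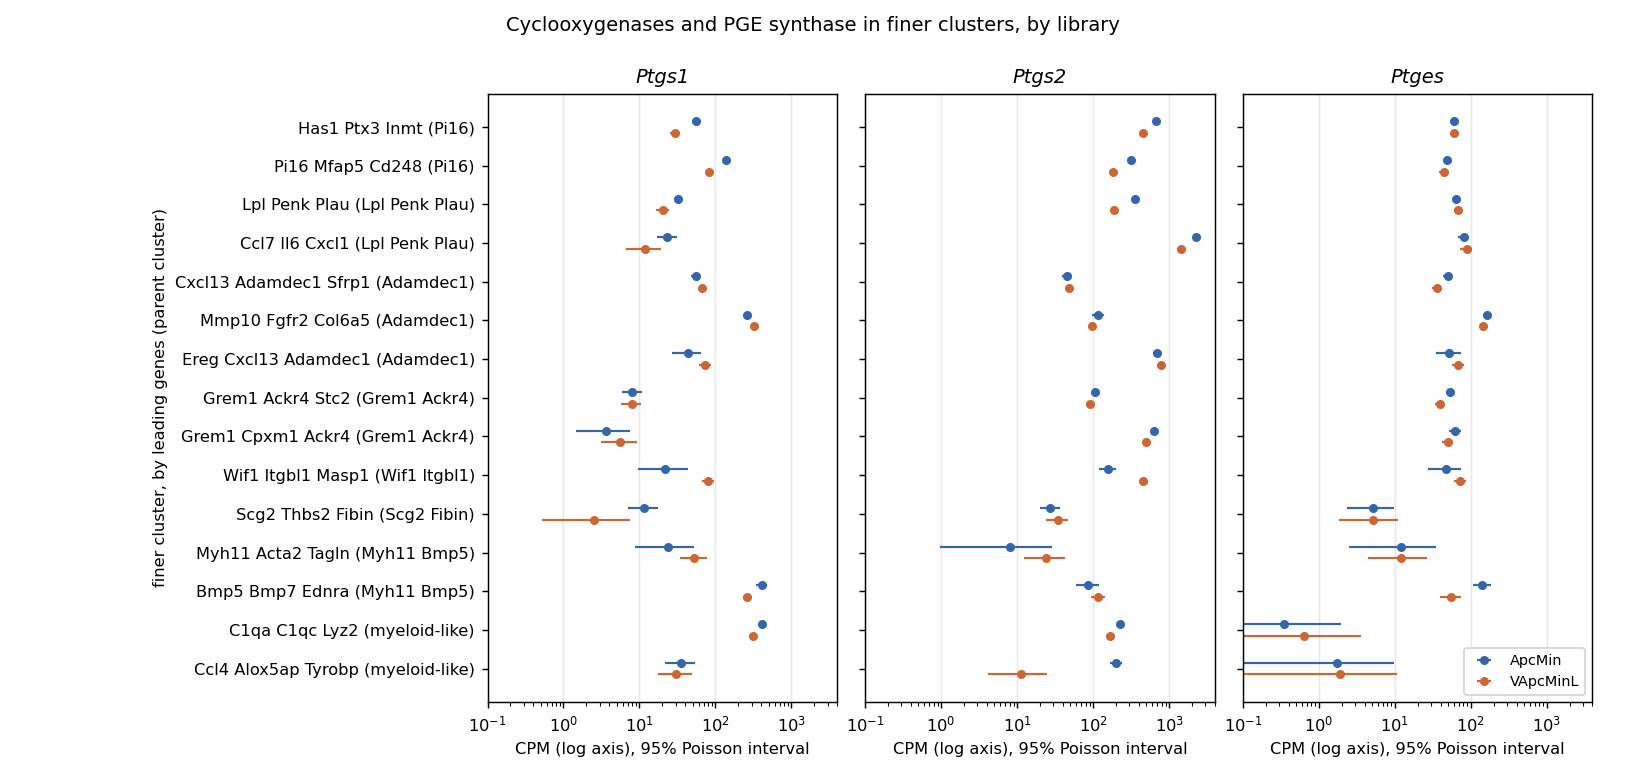
CPM (log axis) of *Ptgs1*, *Ptgs2* and *Ptges* in finer clusters named by their leading genes with the parent cluster in brackets. Points are the ApcMin and VApcMinL libraries and bars are 95% Poisson intervals for counting error. The *Ccl7* *Il6* *Cxcl1* group holds the highest *Ptgs2* (2237 and 1424 CPM), and *Ptgs1* is highest in the *C1qa* and *Bmp5* groups and in the *Mmp10* group.

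*Ptgs1*, the cyclooxygenase of resting cells, was spread over more cell types. Fibroblasts held 63.3% of its UMIs in ApcMin and 67.1% in VApcMinL. Myeloid-like cells had 263 CPM (248 to 278) in ApcMin and 142 (130.4 to 155) in VApcMinL, in 52.2% and 33.8% of cells at 3000 UMIs. That cluster included 10 and 27 barcodes of a group led by epithelial genes, with *Ptgs1* at 14.7 and 14.4, and with this group split off (resolution 0.5) the level was 347 (328 to 368) and 253 (231 to 276). Blood endothelial-like cells had 114 (91 to 142) and 101 (89.4 to 113). B cell-like cells had 2.17 and 5.49, in 0.773% and 1.44% of thinned cells. Among fibroblasts the order of the clusters was not that of *Ptgs2*. Pi16 and Adamdec1 led with 96.3 (91.7 to 101) and 94.5 (86.7 to 103) in ApcMin, which overlap, while Adamdec1 led in VApcMinL with 141 (134 to 148) against 50.6 (46.3 to 55.2). Grem1 Ackr4 cells were low, at 6.96 and 7.32.

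The pooled fibroblast level of *Ptgs1* differed between the libraries by less than counting error, 59.9 and 60.1 CPM (log2 ratio 0.01, -0.07 to 0.09). The clusters beneath it differed in opposite directions. Pi16 cells had less in VApcMinL (-0.93, -1.07 to -0.78), as did Lpl Penk Plau cells, at 30.5 and 18.4 CPM (-0.73, -1.04 to -0.42). Adamdec1 cells had more (0.58, 0.43 to 0.72), and they were also more numerous in VApcMinL. In the Wif1 Itgbl1 cluster the level was 22.0 CPM in ApcMin (8 UMIs in 24 cells) and 80.5 in VApcMinL (1.87, 0.85 to 3.11). Empty droplets had 44.5 and 22.1 CPM, above the Wif1 Itgbl1 level in ApcMin and the Lpl Penk Plau levels in both libraries. Thinned to 3000 UMIs, 18.0% and 12.1% of Pi16 cells and 25.5% and 27.7% of Adamdec1 cells had a *Ptgs1* UMI.

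Finer groups showed where *Ptgs1* was densest. In the Adamdec1 cluster, a group led by *Mmp10*, *Fgfr2* and *Col6a5* (97 and 297 cells) had 259.8 CPM (231 to 291) in ApcMin and 321 (301 to 342) in VApcMinL, with a UMI in 85.6% and 86.2% of its cells. The *Cxcl13* group beside it had 54.7 and 66.9. This group is not the *Ereg* group that held *Ptgs2*, where *Ptgs1* was 42.9 and 73.7. In the Pi16 cluster, *Ptgs1* was 139 and 83.2 in the *Pi16* *Mfap5* *Cd248* group and 55.3 and 29.3 in the *Has1* group, the reverse of the order for *Ptgs2*. Among myeloid-like cells, the group led by *C1qa*, *C1qc* and *Lyz2*, genes of macrophages, had 406 (383 to 430.1) and 315 (287 to 344), against 35.2 and 30.5 in a group led by *Ccl4*, *Alox5ap* and *Tyrobp*.

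A small group not counted in the 6 fibroblast clusters was also high in *Ptgs1*. The cluster led by *Myh11*, *Tagln* and *Acta2* held 69 and 135 cells and was mixed. Its finer groups were contractile cells led by *Myh11*, with *Ptgs1* at 24.1 and 52.4 CPM, and cells led by *Bmp5*, *Bmp7* and *Ednra* (29 and 71 cells), with 408 (346 to 478) and 263 (227 to 303). By the fixed markers the *Bmp5* cells are subepithelial *Pdgfra*-high-like, with 8 of 10 markers detected against 5 of 10 in the Wif1 Itgbl1 cluster. They stand outside the pooled fibroblast values because they shared a cluster with contractile cells at the resolution used. Of the *Bmp5* cells, 96.6% and 83.1% had a *Ptgs1* UMI. The *Bmp5* cells also differed between libraries in 4 of the 6 members with enough UMIs, past 2-fold, where 13.1% of all genes tested in them passed. *Ptges* was 142 (107 to 186) and 54.5 (38.9 to 74.1), *Hpgd* 166 and 76.2, and *Ptger4* 115 (83.5 to 155) and 32.7 (20.9 to 48.6). *Ptgis* was on the other side, at 80.5 (54.3 to 115) and 214 (182 to 249.9). These values rest on 29 ApcMin cells. Of the 62 ApcMin UMIs of *Hpgd* in them, 27 came from a single cell. Without that cell *Hpgd* was no longer past 2-fold, so its place among the 4 rests on that cell. In the whole cluster led by *Myh11*, *Tagln* and *Acta2*, the ApcMin level of *Hpgd* without it was 63.0 CPM (44.6 to 86.5). The VApcMinL level there was 60.9.

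*Ptges*, on chromosome 2 at 30889471 to 30929863 on the minus strand, encodes the inducible synthase that makes PGE2 from PGH2. It was nearly confined to fibroblasts, which held 96.5% and 94% of its UMIs, and it was even across them. The levels were 66.4 CPM (61.6 to 71.5) and 71.6 (65.3 to 78.3) in Lpl Penk Plau, 72.5 and 72.4 in Adamdec1, and 55.1 and 53.9 in Pi16. In Grem1 Ackr4 they were 55.1 and 42.3 (log2 ratio -0.38, -0.59 to -0.17). The Scg2 Fibin cluster was the exception, at 6.98 (3.72 to 11.9) and 4.94 (1.81 to 10.7). Pooled over fibroblasts the level was 58.0 and 58.8 (log2 ratio 0.02, -0.06 to 0.10), in 15.5% and 14.9% of thinned cells (47.1% and 39.3% unthinned) against 0.155% and 0.288% of thinned B cell-like cells. The *Mmp10* group stood above the other Adamdec1 cells, at 166 (143 to 191) and 145 (132 to 159.5), and so was high for both *Ptgs1* and *Ptges*.

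Myeloid-like cells had both cyclooxygenases and little of this synthase. In the *C1qa* group *Ptgs2* was 223 CPM (206 to 242) and 168 (148 to 189.6), while *Ptges* was 0.353 and 0.646. The myeloid-like cluster as a whole gave a *Ptges* level of 0.667 in ApcMin and 13.3 in VApcMinL, but 43 of the 49 VApcMinL UMIs lay in 1 barcode of 354549 UMIs, and without it the level was 1.79. That barcode sat in a finer group led by the epithelial genes *S100g*, *Fxyd3* and *Sprr2a3* and also held 266 of the cluster's 539 *Ptgs2* UMIs. Without it *Ptgs2* in the myeloid-like cells of VApcMinL was 81.7 (72.3 to 91.9) in place of 146, against 167 in ApcMin. With the whole epithelial group split off (resolution 0.5, a group led by *C1qa*, *C1qc* and *C1qb* with 248 and 191 cells), *Ptgs2* was 222 (207 to 239) in ApcMin and 134 (118 to 151) in VApcMinL. With that barcode, *Ptges* was 1 of 5 members past 2-fold there, where 8.36% of genes were.

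Whether single cells combined the enzymes was read from thinned cells. In Adamdec1 cells with a *Ptgs1* UMI, 29.7% (21.6 to 38.8) had *Ptges* in ApcMin, against 16% (12.3 to 20.3) of those without, and in VApcMinL the shares were 23.5% (18.8 to 28.6) and 15.7% (13.3 to 18.4). In Pi16 cells the shares with and without *Ptgs1* were 14.8% and 15.5% in ApcMin and 12.2% and 13.4% in VApcMinL, and in Lpl Penk Plau cells 11.3% and 18.3%, and 17.5% and 17.8%, with overlapping intervals. Over all fibroblasts they were 18.3% (14.7 to 22.4) and 15.1% (13.8 to 16.5) in ApcMin and 20.4% (16.9 to 24.3) and 14% (12.8 to 15.3) in VApcMinL. For *Ptgs2* over all fibroblasts, *Ptges* was found in 15.1% of cells with *Ptgs2* and 15.7% without in ApcMin, and in 15.7% and 14.6% in VApcMinL. The Adamdec1 shares hold the difference between the *Mmp10* group, high in both *Ptgs1* and *Ptges*, and the other Adamdec1 cells. The pooled shares hold the difference between clusters as well, and pairing within finer groups was not tested. Cells of 1 library are not replicates, so these intervals describe the libraries only.

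*Ptgis*, on chromosome 2 at 167191805 to 167240604 on the minus strand, encodes prostacyclin synthase. Fibroblasts held 97.5% and 90.0% of its UMIs. Its order across fibroblasts was again different. The Scg2 Fibin cluster had 461 CPM (431 to 493) in ApcMin and 329 (298 to 363) in VApcMinL, and the Wif1 Itgbl1 cluster 394 (332 to 464) and 431 (400.0 to 465). Pi16 and Lpl Penk Plau followed at 200.2 and 168, and 146 and 165, then Grem1 Ackr4 at 95 and 78.4 and Adamdec1 at 75.0 and 59.3. The Scg2 Fibin cells, lowest in *Ptges*, were thus among the highest in *Ptgis*, with a UMI in 69.6% and 66.1% of thinned cells against 0.155% and 0.576% of B cell-like cells. Blood endothelial-like cells, a known source of prostacyclin in larger vessels, were at 1.40 (0.0353 to 7.77) and 5.45 (3.12 to 8.85). The pooled fibroblast level was 164 (161 to 168) in ApcMin and 134 (131 to 138) in VApcMinL (log2 ratio -0.29, -0.34 to -0.24). The lowest ratio of the 6 clusters was in Scg2 Fibin (-0.49, -0.66 to -0.31), whereas Lpl Penk Plau went the other way (0.18). The Scg2 Fibin difference depends on the cells included. At resolution 0.5, with 125 and 99 cells, *Ptgis* was 484 (451 to 519) and 429.9 (388 to 476), which overlap, and at resolution 1, with 130 and 109 cells, it was 460.2 (429 to 493) and 326 (294 to 360.5).

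Mesothelial-like cells, which line the outer gut wall, were a separate compartment with only 7 ApcMin and 35 VApcMinL cells. They had *Ptgis* at 526 CPM (439.5 to 626) and 526 (469 to 588). *Ptgds*, on chromosome 2 at 25466709 to 25470046 on the minus strand, encodes a PGD2 synthase and was almost absent elsewhere. Of its 12 UMIs in ApcMin cells 11 were mesothelial-like, and of 15 in VApcMinL cells 9 were. Those UMIs lay in only 4 cells of ApcMin and 12 of VApcMinL, all clusters counted. Fibroblasts had 0 *Ptgds* UMIs in both libraries, which allows up to 0.0847 and 0.0955 CPM. Mesothelial-like cells also had *Ptger3* at 196 (144 to 259.7) and 85.4 (63.3 to 113), *Ptgs1* at 220.4 and 99, and *Hpgd* at 486 (402 to 581) and 275 (234 to 321). Of the 119 *Hpgd* UMIs in ApcMin, 78 came from 1 cell, and without it the level was 289 CPM. The same cell held 24 of the 48 *Ptger3*, 27 of the 54 *Ptgs1* and 61 of the 129 *Ptgis* UMIs, and without it those levels were 169 (109 to 252), 191 (126 to 277) and 480.1 (373 to 609). Of 4 members tested there 2, *Ptgs1* and *Ptger3*, were at least 2-fold lower in VApcMinL, where 3.33% of genes were. Without that ApcMin cell, neither of these 2 was 2-fold lower, so the count rests on 1 cell.

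*Hpgd* encodes the enzyme that starts the breakdown of PGE2 and was found in epithelial-like, myeloid-like, mesothelial-like and fibroblast clusters. Epithelial-like cells had 308 CPM (276 to 342) in ApcMin and 579 (565 to 593) in VApcMinL, in 38.5% and 76.8% of thinned cells. With 26 and 280 such cells, they held 6.88% of the *Hpgd* UMIs in ApcMin cells and 63.7% in VApcMinL cells. The level over all cells was 71.1 and 152, and the part that the unequal numbers of epithelial-like cells, which the sort was meant to leave out, play in it was not tested. Empty droplets moved the same way, 29.3 and 140.3, and B cell-like cells had 1.36 and 5.99. The *C1qa* group had 119 and 156.

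Among fibroblasts, *Hpgd* marked the Grem1 Ackr4 cluster, at 257 CPM (246 to 268) and 202 (193 to 212), in 46.0% and 37.2% of thinned cells. This is the cluster with the least *Ptgs1* of the 4 largest fibroblast clusters in both libraries. Lpl Penk Plau had 97.3 and 91.4, Adamdec1 85.2 (77.9 to 93.1) and 48.7 (44.6 to 53.1), Pi16 33.3 and 31.6, and Wif1 Itgbl1 19.3 and 19.8. The *Mmp10* group, high in *Ptgs1* and *Ptges*, had 26.4 and 9.91. Over all fibroblasts, *Hpgd* was found in 12% of thinned cells with *Ptgs1* and 22.3% without in ApcMin, and in 8.84% and 18.8% in VApcMinL, shares that hold the difference between clusters. The largest difference between libraries in the 4 largest clusters was in Adamdec1 (log2 ratio -0.81, -0.99 to -0.63), and the pooled value was -0.22 (-0.29 to -0.16).

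**Figure D3:**
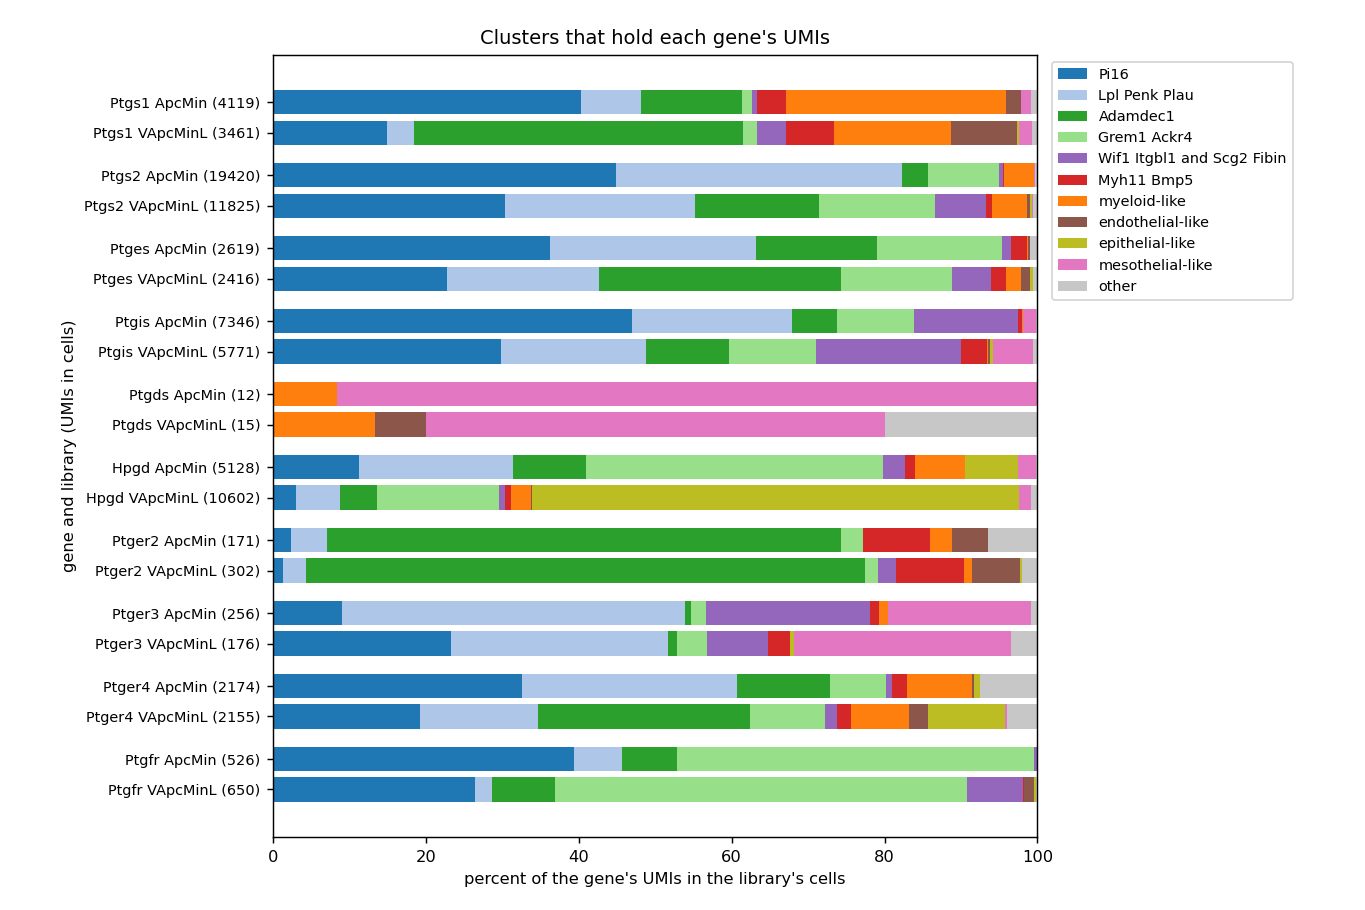
Percent of each gene's UMIs in the cells of a library that each cluster holds, with 1 bar per gene and library and the number of UMIs beside it. *Ptgfr* lies almost wholly in fibroblast clusters (100% and 98.2%), and the epithelial-like share of *Hpgd* is 6.88% in ApcMin and 63.7% in VApcMinL.

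*Ptger2*, on chromosome 14 at 44988195 to 45003820 on the plus strand, encodes the PGE2 receptor EP2, which raises cyclic AMP. Adamdec1 cells had it at 20.0 CPM (16.5 to 24.0) and 20.9 (18.2 to 23.8) and held 67.3% and 73.2% of its UMIs, while Pi16 cells had 0.232 and 0.392 and Grem1 Ackr4 cells 0.645 and 0.600. The *Mmp10* group was again on top within Adamdec1, at 37.9 and 38.3 against 15.1 and 14.8 in the *Cxcl13* group. The *Bmp5* cells had 40.2 and 32.7, and lymphatic endothelial-like cells 28.8 (12.4 to 56.7) and 16.8 (10.1 to 26.2). Pooled over fibroblasts *Ptger2* was 3.03 (2.54 to 3.59) and 6.37 (5.60 to 7.22), a log2 ratio of 1.07 (0.76 to 1.39). It was the only 1 of 9 members tested to be at least 2-fold apart, where 6.81% of all 14041 genes were. Within the Adamdec1 cluster the ratio was 0.06 (-0.27 to 0.40), and Adamdec1 cells numbered 462 in ApcMin and 1108 in VApcMinL.

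*Ptger4*, on chromosome 15 at 5206661 to 5244187 on the minus strand, encodes EP4, the other receptor that raises cyclic AMP, and was found in immune-like cells as well as fibroblasts. T cell- or ILC-like cells had 79.8 CPM (61.1 to 103) and 55.1 (35.6 to 81.3), and B cell-like cells 23.0 and 25.5, so the latter cannot serve as a background here. Erythroid-like cells had 0.400 and 0.352. Lpl Penk Plau had 57.7 (53.2 to 62.4) and 49.9 (44.7 to 55.5), Adamdec1 46.1 (40.7 to 52.0) and 56.5 (52.0 to 61.2), Pi16 41.1 and 40.6, and Grem1 Ackr4 20.4 and 25.3. The *Ccl7* *Il6* group, highest in *Ptgs2*, had 119 (104 to 136) and 85.8 (71.0 to 103). The pooled fibroblast ratio was 0.03 on the log2 scale, with 40.4 and 41.2 CPM.

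*Ptger3*, on chromosome 3 at 157566892 to 157645888 on the plus strand, encodes EP3, which mainly lowers cyclic AMP, and was sparse in fibroblasts. The Scg2 Fibin cluster had 29.0 CPM (21.8 to 37.8) and 10.7 (5.69 to 18.3), and Lpl Penk Plau 10.8 (8.95 to 13) and 7.49 (5.56 to 9.87). In the Pi16 cluster it was 1.34 (23 UMIs) and 4.01 (41 UMIs). Those UMIs give log2 ratios of -1.44 (-2.44 to -0.55) in Scg2 Fibin and 1.59 (0.82 to 2.39) in Pi16. Within Pi16, the *Has1* group was at 0.560 and 5.05 CPM and the *Pi16* *Mfap5* *Cd248* group at 2.27 and 2.47. The ApcMin level of the Pi16 cluster did not exceed that of the empty droplets, which was 1.38. *Ptger3* was the 1 of 4 members past 2-fold in Scg2 Fibin, where 5.82% of genes were, and the 1 of 8 in Pi16, where 4.19% were.

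*Ptgfr*, on chromosome 3 at 151796502 to 151837630 on the minus strand, encodes the receptor of PGF2 alpha, which acts through calcium. It was the member most restricted to fibroblasts, which held 100% and 98.2% of its UMIs. Grem1 Ackr4 cells had 31.7 CPM (27.9 to 35.9) and 42.0 (37.7 to 46.7), and Pi16 cells 12 and 16.8, with 3.11 and 2.1 in Lpl Penk Plau. B cell-like cells had 0 UMIs, which allows up to 1.0 and 1.84 CPM. The VApcMinL level was higher in Grem1 Ackr4 (log2 ratio 0.41, 0.17 to 0.65) and over all fibroblasts (12.1 and 16.5 CPM, 0.45, 0.28 to 0.62). The Wif1 Itgbl1 cluster had 1 UMI in ApcMin and 47 in VApcMinL (2.75 and 29.1 CPM). *Ptgs1* and *Ptgs2* were the 2 of 4 members tested in that cluster at least 2-fold higher in VApcMinL, where 8.36% of genes were. In ApcMin, its *Ptgs1* level was below that of the empty droplets, as was its *Ptgs2* level without 1 cell.

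No member was 2-fold apart in the Lpl Penk Plau cluster (7 tested, 2.76% of genes), the Adamdec1 cluster (8 tested, 4.02%) or the Grem1 Ackr4 cluster (7 tested, 2.07%). The pooled median log2 ratio of the 9 members tested was 0.01, against 0.02 over all genes. Of 25 other pathway genes on a list of phospholipases, synthases, transporters and receptors, 19 had enough UMIs in pooled fibroblasts and 0 were 2-fold apart, with a median of -0.13. *Pla2g4a*, the phospholipase that frees arachidonic acid, was 127 CPM and 153 in Adamdec1 and 62.6 and 77.9 pooled (log2 ratio 0.32). *Slco3a1*, a transporter of prostaglandins, was 98.1 and 65.1 (-0.59, -0.66 to -0.52).

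The remaining pathway genes filled in the other routes. *Slco2a1*, the transporter that takes up PGE2 before HPGD acts, was at 142 CPM and 264 in blood endothelial-like cells. *Hpgds*, the hematopoietic PGD2 synthase, was at 294 and 204 in the *C1qa* group. *Tbxas1*, thromboxane synthase, was at 141 (128 to 156) and 98.8 (83.8 to 116) there. The prostacyclin receptor gene *Ptgir* was at 43.8 and 46.9 in Lpl Penk Plau and 39.7 and 19.7 in Scg2 Fibin. The thromboxane receptor gene *Tbxa2r* was at 71.9 and 30.9 in lymphatic endothelial-like cells, and *Ptger1*, encoding EP1, at 18.6 and 13.6 in Adamdec1. The PGD2 receptor genes were at or near 0, with 0 UMIs of *Ptgdr* in both libraries and 0 and 2 of *Ptgdr2*.

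The genes whose levels ran most like a member's were found by Pearson correlation of log2(CPM + 1) over 32 points, 16 clusters in each of 2 libraries. The points share libraries and depth, so the values are descriptions. *Ptgs2* ran with *Pygl* (0.93), *Dse* (0.93) and *Ecm1* (0.92), and *Ptgs1* with *Xlr* (0.83), *Ecm1* (0.82) and *Pltp* (0.81). *Ptges* ran with *Adamts15* (0.92), *Arsj* (0.90) and *Gpx3* (0.89), *Ptgis* with *Sobp* (0.98), *Pdgfra* (0.97) and *Mrc2* (0.97), and *Hpgd* with *Thrb* (0.88), *Echdc2* (0.88) and *Fmn1* (0.87). Of the receptors, *Ptger2* ran with *4833422C13Rik* (0.82), *Pdlim3* (0.77) and *Foxl1* (0.77), and *Ptger3* with *Sphkap* (0.87), *Kcng4* (0.86) and *Tmem200a* (0.84). *Ptger4* ran with *AW112010* (0.83), *Sms* (0.82) and *Fam46a* (0.82), and *Ptgfr* with *C3* (0.88), *Col14a1* (0.88) and *Glt8d2* (0.86). Between members the highest value was for *Ptgs2* and *Ptges* (0.82).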

How the data were processed

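The members and gene lists were chosen with earlier results of these data known. The authors aligned reads to mm10 (GRCm38) and counted UMIs per gene and barcode with Cell Ranger, release 2.1.1 in the submitters' processing notes and 3.1.0 in the deposited files. The deposited values are raw counts, without cell calling or filters. The libraries held 93203061 and 101609269 UMIs over 6794880 barcodes each.

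Barcodes with at least 3000 UMIs and at most 20% mitochondrial UMIs were kept, and those of highest Scrublet score (scanpy 1.11.5) were left out at 0.8% per 1000 barcodes (348 and 345). The study used another doublet caller. Seurat 5.3.0 in R 4.3.3 (1578 anchor genes, members and pathway genes left out) integrated the libraries and clustered them by the Louvain algorithm with 20 principal components, 20 neighbours and resolution 0.2. Clusters were named from 174 markers of 26 classes, by a rule set after the clusters had been seen, with at least 3 markers found in 25% of the cells. UMIs were summed per cluster and library with scipy 1.17.1, pandas 2.3.3, anndata 0.12.19 and numpy 2.4.6 and plotted with matplotlib 3.10.9, under Python 3.11.15. Intervals (95%) are exact Poisson for CPM, Clopper-Pearson for shares and conditional binomial for ratios, and all cover counting error only. The limit that a count of 0 allows is the exact Poisson upper bound. A gene was counted for 2-fold differences at 50 UMIs over both libraries. Empty droplets are barcodes of ranks 45000 to 90000, and this free RNA was estimated as 3.77% and 3.79% of fibroblast UMIs. On the same strand *Ptges* overlaps the pseudogene *Gm13400* and *Hpgd* the gene model *Gm45540*, so their counts could be split. Gene positions are from the GRCm38 annotation and promoters from RefSeq. The ratio calculation was tested on simulated Poisson counts without variation between cells, so the test cannot show that the intervals cover such variation.

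All members were named. Other genes were pathway genes with at least 50 UMIs, the 3 genes of at least 200 UMIs most like each member over clusters of at least 20 cells in both libraries, and leading genes and markers of clusters. The finer groups, the *Bmp5* cells and the single barcode were chosen after their values were seen. Alternatives covered the UMI minimum, mitochondrial limit, trimming, doublets, integration, anchoring genes, resolution, naming by each cell's own markers, weighting, thinning, totals and free RNA.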

Additional observations from a re-analysis of the deposited data

Results flagged for a closer look

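For 5 members the libraries had log2 ratios of opposite sign in 2 fibroblast clusters, with intervals that exclude 0, and the difference between the clusters was not tested. The values are VApcMinL over ApcMin. *Ptgs1* was at 1.87 in the Wif1 Itgbl1 cluster and at -0.93 in the Pi16 cluster. The Wif1 Itgbl1 cluster has 24 ApcMin cells with 8 *Ptgs1* UMIs, a level below that of the empty droplets. *Ptgs2* was at 1.54 in the Wif1 Itgbl1 cluster, where 26 of the 57 ApcMin UMIs came from 1 cell, and -0.64 in Lpl Penk Plau. *Ptgis* was at 0.18 in Lpl Penk Plau and -0.49 in Scg2 Fibin, but at resolution 0.5 the intervals of the Scg2 Fibin levels overlap (484 and 429.9 CPM). *Ptger3* was at 1.59 in Pi16, where the ApcMin level did not exceed that of the empty droplets, and -1.44 in Scg2 Fibin. *Ptger4* was at 0.31 in Grem1 Ackr4 and -0.21 in Lpl Penk Plau.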

How the results depend on the processing

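No paired analysis was possible because the series holds 1 library of each genotype, and for the same reason no replicate could be left out. The 9 pooled fibroblast log2 ratios were recomputed under 17 alternatives. Of the 153 values, 141 stayed within the counting interval of the reported value and 12 moved outside it. A change of sign was counted only where the reported ratio was past 2-fold. That held for *Ptger2* alone, which kept its sign in all 17. *Ptgs2* (-0.58) was -0.62 and *Ptgis* (-0.29) was -0.39 with a minimum of 1500 UMIs and new clusters, and -0.63 and -0.40 with the libraries merged without integration. *Ptgis* was -0.24 with doublets kept, and *Ptgs2* was -0.62 with cells named by their own markers. With each cell weighted alike *Ptgs1* (0.01) was 0.15 and *Ptgs2* -0.50, and thinning to 3000 UMIs gave the same 2 values and -0.36 for *Hpgd* (-0.22), which was -0.30 with free RNA subtracted. *Ptger2* ranged from 0.95 to 1.19 and was past 2-fold in 15 of the 17. *Ptgs1*, *Ptges* and *Ptger4*, near 0, did not keep their sign under every alternative. Of 336 recomputed levels, 246 stayed within their interval and 90 moved. Leaving out barcodes shared by the libraries, and counting the *Bmp5* cells as fibroblasts, were alternatives chosen after seeing the data. Depth limits *Ptgds*, *Ptger2* and *Ptger3* most.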

Other observations

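*Tbxas1*, thromboxane synthase, is described above in myeloid-like cells. The *Bmp5* *Bmp7* cells had it at 105 CPM (74.4 to 143, 39 UMIs) in ApcMin and 5.45 (1.48 to 13.9, 4 UMIs) in VApcMinL, with 51.7% of the ApcMin cells carrying a UMI. *Ptgs2* in the myeloid-like group led by *Ccl4*, *Alox5ap* and *Tyrobp* was at 203 CPM (167 to 243) in ApcMin and 11.4 (4.19 to 24.9) in VApcMinL, on 47 and 74 cells, in a group where 23.3% of the genes tested were at least 2-fold apart. Both were picked after their values were seen.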
